A study of Homo sapiens with 6 samples.

Results

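The genes of glucose uptake, glycolysis, lactate handling and the pentose phosphate pathway were followed in RNA recovered with SYNJ2BP, an outer mitochondrial membrane protein. A list of 32 genes was matched by symbol to the 60671 Ensembl gene IDs of the count table, and each of the 32 was found under 1 ID. All 32 passed the filter on low counts and were tested. The cells were HEK, a human embryonic kidney line, transfected with calcium phosphate, and RNA was collected with an antibody against the myc tag and depleted of ribosomal RNA. The control libraries, WT.Control replicates 1, 2 and 3, are labelled untreated and as RNA binding SYNJ2BP. The mutant libraries, AAA.mito replicates 1, 2 and 3, are labelled as RNA binding the SYNJ2BP AAA mutant. The sources used here do not give the residues changed, the constructs transfected or what the word mito in the mutant names means. Whether replicates were separate cultures is not stated in the labels, so the spread behind each p-value is that between libraries and may be technical. Input RNA was not analysed here; a lower level of an RNA in the cells, fewer cells and less of it bound therefore cannot be told apart.

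Glycolysis splits glucose into pyruvate in the cytosol. Transporters bring glucose in, hexokinases trap it by phosphorylation, phosphofructokinase commits it to the pathway, and the enzymes of the lower part harvest ATP and NADH. Lactate dehydrogenase turns pyruvate into lactate, while pyruvate dehydrogenase kinases, which sit in the mitochondrial matrix, restrain its entry into the mitochondrion. The pentose phosphate pathway branches off after the hexokinase step and yields NADPH and ribose phosphate. Most of these enzymes are cytosolic, but the hexokinases HK1 and HK2 dock on the outer mitochondrial membrane through their N-terminal ends. The comparison of the groups asks how much of each of these RNAs came down with either form of SYNJ2BP.

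The start of the coding sequence is shown for HK1 and HK2, because it encodes the end of the protein that binds mitochondria. Both stretches are the reference sequence of GENCODE release 29 on GRCh38, 5′ to 3′, from the first base of the start codon, and capitals mark the bases that differ between them. HK1 lies at chromosome 10, 69318948 to 69319010, and HK2 at chromosome 2, 74834581 to 74834643, both on the plus strand.
HK1: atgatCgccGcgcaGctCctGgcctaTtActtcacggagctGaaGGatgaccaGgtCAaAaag
HK2: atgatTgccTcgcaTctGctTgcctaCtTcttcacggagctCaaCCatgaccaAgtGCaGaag
The stretches are each 63 bases long and differ at 14 of them.

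Total counts ranged from 3287218 in mutant replicate 2 to 73331652 in mutant replicate 3. Background was measured as the count density, per base of gene span, of 407 olfactory receptor genes, a family taken as little transcribed. It made up 38.1%, 84.5% and 7.45% of nuclear gene counts in control replicates 1, 2 and 3, and 55.5%, 81.9% and 6.57% in the mutant. Libraries with the same replicate number deviated together from their group means and are treated below as pairs. SYNJ2BP mRNA itself had 28.7, 13.8 and 68.0 CPM in the control and 21.5, 18.0 and 79.5 CPM in the mutant, and its log2 fold change with pairs was 0.06 ± 0.24. Of the markers set for HEK cells, VIM, KRT18, NEFM and NEFL lay above 50 times background in both replicate 3 libraries. LIN28B reached 16.3 and 19.5 times there, while KRT8 stayed at 8.30 and 6.13 times and PAX2 at 2.88 and 4.35 times. Of the markers of other cells, PTPRC, HBB, ALB, COL1A2 and PECAM1 were at most 1.54 times background in every library, and COL1A1 reached 17.5 times.

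None of the 32 genes passed the test between control and mutant. Of their RNAs, 17 lay far above background, meaning more than 8 times above it on average over the 6 libraries. Among them were GAPDH, TPI1, ALDOA, ENO1, PKM, LDHA and LDHB, while HK1, HK2, PFKM, PFKP, ALDOC and PGK1 did not reach this limit. The limit is set per base of gene span, so genes with long introns can miss it. HK1 and PGK1, with spans of 132 and 219 kb, ranked 9 and 10 of the 32 per kb of exon above background in control replicate 1. The quasi-likelihood F test of edgeR without pairs called 0 members lower and 0 higher, and 0 at an unadjusted p under 0.05, where 0.0689% of all tested genes were lower at that level. Over all 33375 tested genes it also called 0% lower and 0 higher, and 25 had an unadjusted p under 0.05. DESeq2 called 0 members too, with 0 at an unadjusted p under 0.05. With the pairs as a block, edgeR again called 0 of 32 members in either direction, where it called 1.40% of all tested genes lower and 0.00599% higher. Of genes far above background it called 8.13% lower and 0.0429% higher. Depth-scaled counts (CPM, on TMM-scaled library sizes) for replicates 1, 2 and 3 in this order, and log2 fold changes of the mutant over the control with pairs, are given below; adjusted p-values are those of the edgeR quasi-likelihood F test with pairs over all tested genes.

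On balance the values lay below 0, as they did for other well recovered mRNAs. With pairs, 31 of 32 members had a negative log2 fold change and their median was −0.48, against −0.08 over all tested genes. The 3107 other protein-coding genes far above background had a median of −0.55, with 95.1% negative. The 17 members far above background had a median of −0.74, and all 17 were negative; 10 of them had an unadjusted p under 0.05. The difference between these 17 and the other genes was not tested. At an unadjusted p under 0.05, 13 members were lower and 0 higher with pairs, where 9.17% of all tested genes, 39.5% of genes far above background and 47.8% of protein-coding genes far above background were lower. All 3 pairs were lower for 14 members (43.75%), against 18.2% of all tested genes and 38.8% of genes far above background. The share was 44.4% of other protein-coding genes far above background. For no member did all mutant libraries lie below all control libraries, which held for 0.446% of tested genes and 0.0859% of genes far above background. The sign of the values depends on the scaling: with factors taken from genes far above background the member median was −0.01, the median of all tested genes was 0.39, and 17 of 32 members were negative. SLC2A1, SLC2A3, PFKFB2, PFKFB3, PFKFB4, PGK1, ENO2, SLC16A1, PDK1, PDK3, PGLS, RPIA, RPE, TKT and TALDO1 were above 0 with those factors, so the directions given below are those with TMM factors from all tested genes.

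**Figure D1:**
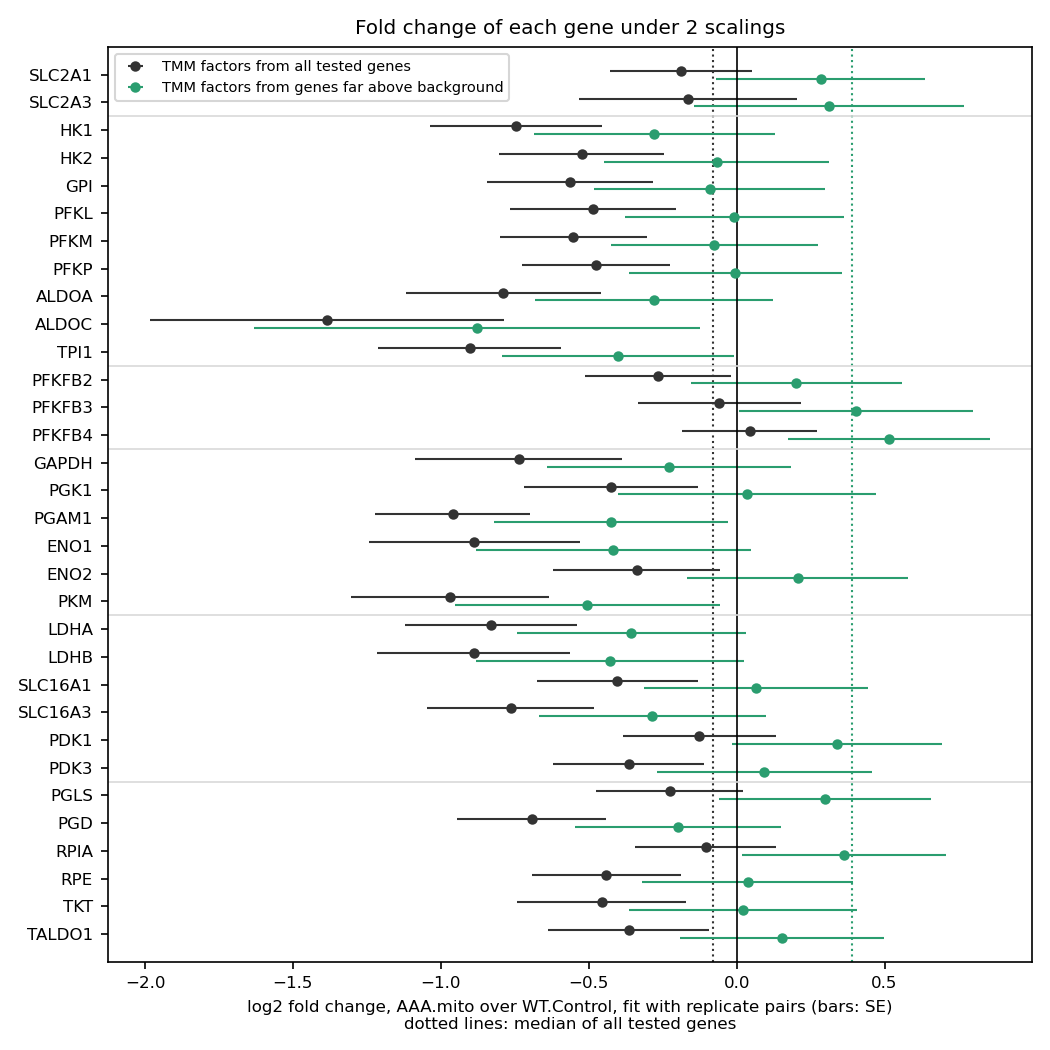
Log2 fold change (mutant over control, fit with replicate pairs) of each of the 32 genes, with bars of 1 SE, under TMM factors from all tested genes (dark) and from genes far above background (green). Dotted lines mark the median of all tested genes (−0.08 and 0.39); 31 of 32 dark points and 17 of 32 green points lie below 0.

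The glucose transporters were recovered close to background in most libraries. SLC2A1, the basal glucose transporter, had 19.5, 14.2 and 23.5 CPM in the control and 16.9, 10.2 and 24.5 CPM in the mutant. Its counts were 12.5 and 15.5 times background in control and mutant replicate 3 but below 3 times in the other libraries. SLC2A3, a high-affinity transporter typical of neurons, had 65, 85 and 157 counts in the control and 52, 21 and 138 counts in the mutant, which is at most 4.01 times background. Log2 fold changes were −0.19 ± 0.24 for SLC2A1 and −0.17 ± 0.37 for SLC2A3 (SE, 3 pairs), smaller than their errors.

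Per kb of exon above background, the hexokinases were recovered at levels within 2.07 times of each other. HK1 (ENSG00000156515, chromosome 10, 69269984 to 69401884), the housekeeping hexokinase, had 197, 55.9 and 144 CPM in the control and 82.5, 56.3 and 74.1 CPM in the mutant. HK2 (ENSG00000159399, chromosome 2, 74833981 to 74893359), the inducible form, had 139.9, 35.3 and 66.9 CPM in the control and 53.5, 28.2 and 73.1 CPM in the mutant. Both were highest in control replicate 1 and low in both replicate 2 libraries, and the groups overlapped. HK1 had pair differences of −1.26, 0.01 and −0.95 in pairs 1, 2 and 3 and a log2 fold change of −0.75 ± 0.29 (adjusted p = 0.266). HK2 had −1.38, −0.33 and 0.13, so its direction turned in pair 3, and −0.52 ± 0.28 (adjusted p = 0.574). Counts above background per kb of exon were 1.28 times as high for HK1 as for HK2 in control replicate 1 and 2.07 times in control replicate 3. The same ratio, which does not depend on the scaling between libraries, was 1.26 and 0.931 in mutant replicates 1 and 3. In replicate 2 it was 0.810 in the control and 1.53 in the mutant, where predicted background equalled 75.4% and 72.2% of the HK1 count. Per base of gene span HK2 stood above HK1 in replicates 1 and 3 of both groups. In the control it lay at 11.2 and 20.3 times background there, against 7.13 and 19.6 times for HK1.

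Of the 3 phosphofructokinases, the liver form PFKL exceeded the muscle form PFKM in replicates 1 and 3. PFKL had 123, 17.7 and 126 CPM in the control and 50.9, 18.5 and 109.9 CPM in the mutant, and lay 83.1 and 86.0 times above background in control and mutant replicate 3. Per kb of exon above background, PFKL was 1.36 and 1.78 times PFKM for replicates 1 and 3 of the control and 1.35 and 1.92 times in mutant replicates 1 and 3. Against PFKP the ratio was 1.23, 1.13, 0.975 and 0.945 in the same libraries. PFKL and the platelet form PFKP were thus nearly level there on this scale. Per base of gene span PFKL stood above PFKP, at 21.4 and 83.1 against 4.46 and 16.1 times background in control replicates 1 and 3. Fold changes were close together, at −0.48 ± 0.28 for PFKL, −0.55 ± 0.25 for PFKM and −0.48 ± 0.25 for PFKP. GPI, the isomerase before this step, had −0.56 ± 0.28, with pair differences of −0.91, −0.41 and −0.36. None of the 4 passed the test (adjusted p = 0.506, 0.646, 0.410 and 0.564 for GPI, PFKL, PFKM and PFKP).

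The bifunctional enzymes PFKFB2, PFKFB3 and PFKFB4, which set the level of an allosteric activator of phosphofructokinase, had a median of −0.06. PFKFB3, a form whose kinase activity outweighs its phosphatase activity, had 102, 38.5 and 152 CPM in the control and 69.0, 48.0 and 159.8 CPM in the mutant. Its pair differences were −0.56, 0.32 and 0.07 and its log2 fold change −0.06 ± 0.28. PFKFB2 had −0.27 ± 0.25 and PFKFB4 0.04 ± 0.23, PFKFB4 being the only member with a positive value in this fit. Per kb of exon above background, PFKFB3 was 3.56 times PFKFB2 in control replicate 1 and 2.52 times in control replicate 3. It exceeded PFKFB4 4.26 and 5.64 times there. In mutant replicates 1 and 3 it was 3.82 and 3.05 times PFKFB2, and 2.21 and 6.09 times PFKFB4. The order was reversed in control replicate 2, at 0.523 and 0.620, where PFKFB3 lay at 1.10 times background.

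ALDOA and TPI1, which cleave the sugar and interconvert the products, were among the best recovered members. ALDOA (ENSG00000149925, chromosome 16, 30064164 to 30070457), the aldolase of muscle and most cultured cells, had 258, 10.3 and 294 CPM in the control and 96.5, 12.9 and 141 CPM in the mutant. TPI1 (ENSG00000111669, chromosome 12, 6867119 to 6870948), triosephosphate isomerase, had 171, 13.1 and 310.3 CPM in the control and 87.0, 12.5 and 109.8 CPM in the mutant. In both genes the control exceeded the mutant in replicates 1 and 3, while the replicate 2 values of the groups were alike and low. Pair differences were −1.42, 0.33 and −1.06 for ALDOA and −0.98, −0.07 and −1.50 for TPI1. The fits with pairs gave −0.79 ± 0.33 (adjusted p = 0.332) for ALDOA and −0.90 ± 0.31 (adjusted p = 0.167) for TPI1. ALDOC, the brain aldolase, had the lowest value of all members, −1.39 ± 0.60 (adjusted p = 0.373), but on few counts. It had 64, 14 and 104 counts in the control and 8, 1 and 93 counts in the mutant. In control replicate 2 and mutant replicates 1 and 2 it lay at 0.733, 1.00 and 0.271 times background. Its span lies within that of AC005726.1 on the same strand, an ID with 8236 counts in control replicate 3.

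The enzymes of the lower part had a median of −0.81 over 6 genes. GAPDH (ENSG00000111640, chromosome 12, 6533927 to 6538374), which makes the first NADH, had 243, 10.6 and 398 CPM in the control and 90.5, 16.2 and 179 CPM in the mutant. Its count density was 1611 times background in control replicate 3, the highest of any member in any library, and 862 times in mutant replicate 3. In replicate 2 it was far lower, at 7.47 times in the control and 11.9 times in the mutant. The pairs did not share a direction, at −1.43, 0.61 and −1.15, and the log2 fold change was −0.74 ± 0.35 (adjusted p = 0.462).

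PGAM1 (ENSG00000171314, chromosome 10, 97426160 to 97433441), phosphoglycerate mutase, came nearest to the threshold. It had 305, 50 and 1977 counts in the control and 86, 7 and 1519 counts in the mutant. The mutant was lower in each pair, by differences of −1.16, −1.03 and −0.75, and the log2 fold change was −0.96 ± 0.26 with pairs (adjusted p = 0.0535) and −0.87 ± 1.08 without them. Replicate 2 rests on 50 and 7 counts, at 1.45 and 0.771 times background, and leaving out pair 1, 2 or 3 from the edgeR fit with pairs gave adjusted p-values of 0.991, 0.347 and 0.653. Without pairs, its value ranged from −2.01 without mutant replicate 3 to 0.30 without control replicate 3.

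ENO1 (ENSG00000074800, chromosome 1, 8861000 to 8879250), the enolase of most tissues, had 677, 36.0 and 465 CPM in the control and 247, 27.7 and 269 CPM in the mutant. PKM (ENSG00000067225, chromosome 15, 72199029 to 72231822), the pyruvate kinase of most tissues outside liver and red cells, had 497, 52.7 and 317 CPM in the control and 163, 32.3 and 211 CPM in the mutant. In both genes the mutant was lower in every pair, at −1.46, −0.38 and −0.79 for ENO1 and −1.61, −0.70 and −0.58 for PKM, and control replicate 1 was the highest library. The fits with pairs gave −0.89 ± 0.36 (adjusted p = 0.295) for ENO1 and −0.97 ± 0.33 (adjusted p = 0.172) for PKM. ENO2, the neuronal enolase, was less plentiful, as ENO1 was at 23.7 and 16.9 times its level per kb of exon, above background, for replicates 1 and 3 of the control, and at 16.5 and 15.5 times for those of the mutant. ENO2 had −0.34 ± 0.28 and PGK1, the first ATP-making kinase of the pathway, −0.42 ± 0.29. The annotated span of PGK1 covers 219 kb and includes a long transcript, and 72.5% of its count in control replicate 2 was predicted from background alone.

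Among genes of pyruvate and lactate, the dehydrogenase subunits LDHA and LDHB had lower values than the kinases PDK1 and PDK3. LDHA, the subunit named for muscle, had 192, 26.6 and 161 CPM in the control and 65.2, 23.1 and 100.4 CPM in the mutant. LDHB (ENSG00000111716, chromosome 12, 21635342 to 21757857), the subunit named for heart, had 357, 89.5 and 378 CPM in the control and 141, 58.6 and 231 CPM in the mutant. Both were lower in the mutant in every pair (−1.56, −0.20 and −0.68 for LDHA and −1.34, −0.61 and −0.71 for LDHB). Their fits with pairs gave −0.83 ± 0.29 (adjusted p = 0.182) and −0.89 ± 0.33 (adjusted p = 0.211). LDHB stood 3.66 and 4.83 times above LDHA per kb of exon for replicates 1 and 3 of the control. For those of the mutant it was 3.78 and 4.70 times, so this order held in these 4 libraries on that scale. Per base of gene span the order was the reverse, with LDHA at 65.2 and 206 and LDHB at 13.9 and 55.5 times background in control replicates 1 and 3. Exons make up 44.2% of the LDHA span and 2.4% of the LDHB span. Which order holds for the mRNAs was not tested.

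The monocarboxylate transporters SLC16A1 and SLC16A3 carry lactate across the plasma membrane. SLC16A3, the form suited to export, had 167, 20.2 and 178 CPM in the control and 67.3, 15.2 and 122 CPM in the mutant. It was lower in each pair (−1.31, −0.40 and −0.54), with −0.76 ± 0.28 (adjusted p = 0.223), while SLC16A1 had −1.03, −0.01 and −0.15 and −0.40 ± 0.27. PDK1, a kinase that switches off pyruvate dehydrogenase, had 23.2, 19.0 and 44.0 CPM in the control and 19.7, 10.2 and 65.5 CPM in the mutant. It was highest in mutant replicate 3, and its pair differences of −0.23, −0.90 and 0.57 did not share a direction. PDK1 had −0.13 ± 0.26 and PDK3 −0.37 ± 0.25. Predicted background equalled 48.2% and 62.9% of the PDK1 count in control and mutant replicate 1, and 31.5% and 63.3% of the PDK3 count. For LDHA it was 1.54% and 5.01%, and for LDHB 7.19% and 20.2%. In both replicate 2 libraries it was at least 72.1% for PDK1 and PDK3. The part of background in their fold changes was not tested. PDK3 exceeded PDK1 8.74 and 4.94 times per kb of exon for replicates 1 and 3 of the control and 4.24 and 3.90 times for those of the mutant.

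The 6 pentose phosphate genes had a median of −0.40. PGD, which makes NADPH in the oxidative branch, had 92.1, 14.9 and 71.2 CPM in the control and 44.9, 14.1 and 39.7 CPM in the mutant. It was lower in each pair (−1.04, −0.09 and −0.84), with −0.69 ± 0.25 (adjusted p = 0.208). PGLS, the lactonase of the same branch, had −0.36, 0.37 and −0.48 and −0.23 ± 0.25. TKT and TALDO1, which shuffle carbon back to glycolysis, had −0.46 ± 0.28 and −0.37 ± 0.27. Pair 2 of TALDO1 had a positive difference, 0.83, and its pair 3 difference was −0.67.

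RPIA and RPE, the isomerase and epimerase of pentose phosphates, had −0.10 ± 0.24 and −0.44 ± 0.25. RPE had 17.0, 8.91 and 76.7 CPM in the control and 10.3, 5.54 and 74.6 CPM in the mutant, so that both replicate 3 libraries stood apart from the other 4 while the groups did not. RPE counts were 70.2 and 81.0 times background in replicate 3 and 4.12 and 2.25 times in replicate 1.

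**Figure D2:**
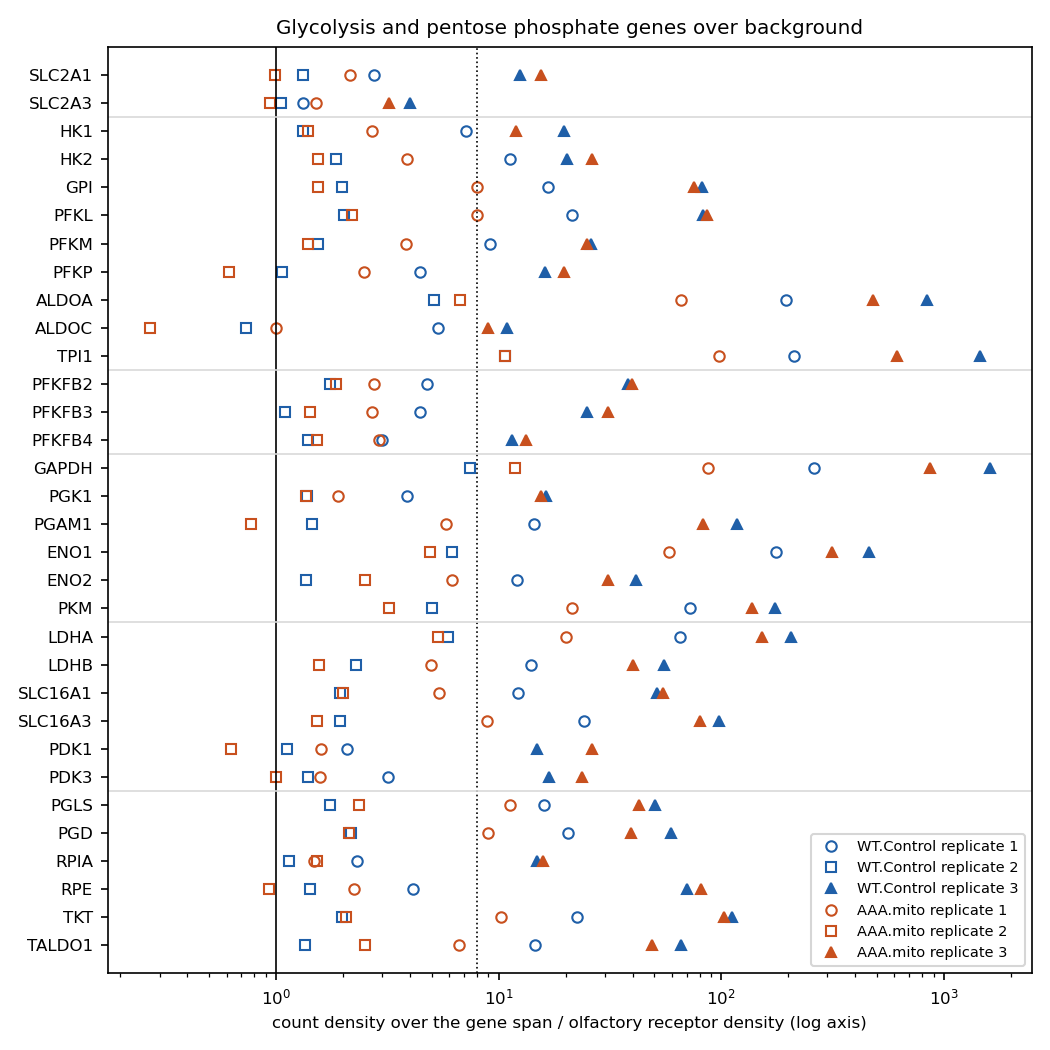
Count density over the gene span divided by that of olfactory receptor genes of the same library (log axis) for the 32 genes, grouped by role, in 3 control (blue) and 3 mutant (orange) libraries. The solid line marks background and the dotted line 8 times background; replicate 2 (squares) lies near background for most genes, and replicate 3 (triangles) above 8 times for all genes but SLC2A3 in each group.

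The members' height above background varied more with the replicate number than with the group. Their median stood at 12.2, 1.64 and 50.9 times background with the wild-type protein, against 5.19, 1.54 and 40.0 times with the mutant. In replicate 2, 23 members in the control and 20 in the mutant lay below 2 times background, so pair 2 holds mostly background for these genes. In replicate 1, the background share was also larger in the mutant (55.5%) than in the control (38.1%), and 30 of 32 members were lower there. In replicate 3, where the shares were 6.57% and 7.45%, 26 of 32 were lower. Of all tested genes, 56.0% were lower in pair 1 and 58.8% in pair 3. Of other protein-coding genes far above background, 95.4% and 90.3% were lower in these pairs, against 93.75% and 81.25% of members. The part of background in these differences was not tested. Together the members held 0.269% ± 0.147 of all counts in the control and 0.180% ± 0.0748 in the mutant (SD, n = 3).

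In pair 3, which has the most counts and the smallest background shares, short members had lower values than long members. All 12 members with a span under 20 kb were lower in the mutant (median −0.67), led by TPI1 (−1.50), GAPDH (−1.15) and ALDOA (−1.06). Of the 20 longer members, 14 were lower (median −0.19), and PDK1 (0.57), PDK3 (0.25) and HK2 (0.13) were higher. HK1 (−0.95), PGD (−0.84) and LDHB (−0.71) were the lowest of the long members. Other protein-coding genes far above background split alike in pair 3. Of those under 20 kb, 2103 of 2175 were lower (median −0.81), and of the longer ones 704 of 932 (median −0.30). Spearman's rho between span and the pair 3 difference was 0.58 across the 32 members and 0.49 across the 3107 other protein-coding genes far above background, so other genes showed it in this pair too. It was 0.28 across members in pair 1 and −0.14 in pair 2, against −0.17 and −0.18 across the other genes. The mean height above background followed the pair 3 difference as well, with rho −0.63 across members and −0.39 across the other genes. Genes of 1 pair share their 2 libraries and are not independent replicates, and the limit of 20 kb was chosen after the values were seen. Other scaling factors shift all genes of a pair together, so they move these counts but not the gap between short and long members.

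**Figure D3:**
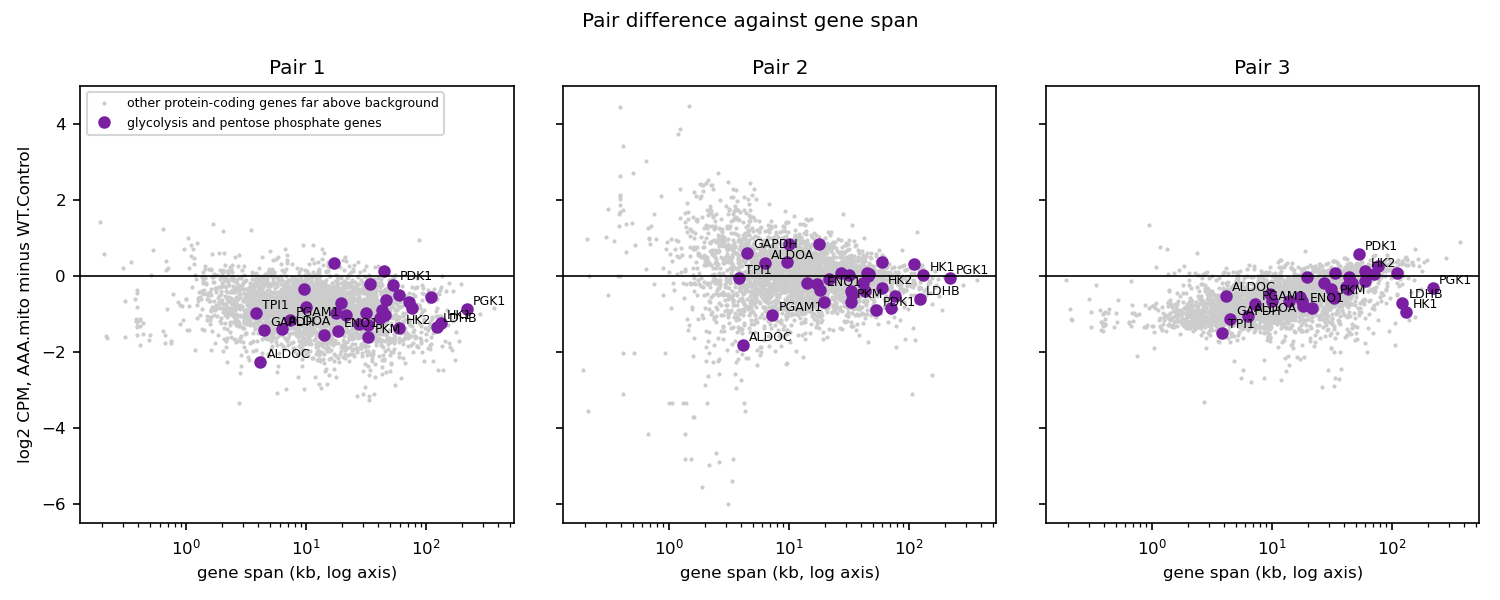
Difference in log2 CPM between mutant and control in each pair against gene span (kb, log axis), for the 32 genes (purple) and 3107 other protein-coding genes far above background (grey). In pair 3 values rise with span in both sets (rho = 0.58 and 0.49); in pair 2 rho is −0.14 and −0.18.

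Levels were compared between genes as CPM above background per kb of exon, taken from each library's total count. By this measure GAPDH (89.4), LDHB (83.3), TPI1 (77), ENO1 (59.0) and ALDOA (50.2) led in control replicate 3, followed by PKM (24.7). The same 5 genes led in control replicate 1, mutant replicate 1 and mutant replicate 3, in another order. ENO1 was first in both replicate 1 libraries, at 118 in the control and 54.9 in the mutant, and LDHB was first in mutant replicate 3, at 55.4. Over these 4 libraries, values ran from 37.3 to 118 for ENO1 and from 45.0 to 103 for LDHB. LDHB ranked 1 or 2 and stood above TPI1 and ALDOA in each of them. The ranks of ENO1 and GAPDH each ran from 1 to 4. The lowest members in control replicate 3 were PDK1 (1.85), ALDOC (0.521) and SLC2A3 (0.309). The dominant aldolase exceeded the other strongly, with ALDOA at 51.3 times ALDOC in control replicate 1, 96.4 times in control replicate 3 and 68.7 times in mutant replicate 3. Exon length is the union over all annotated transcripts, so a gene with long rare isoforms reads low on this scale. The excess was taken over the whole gene span and divided by exon length. Reads in introns, where counted, would therefore make genes with long introns read high. Per base of gene span, TPI1 and ALDOA stood at 1460 and 841 times background in control replicate 3, against 55.5 times for LDHB. The part of intron reads in the rank of LDHB was not tested.

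**Figure D4:**
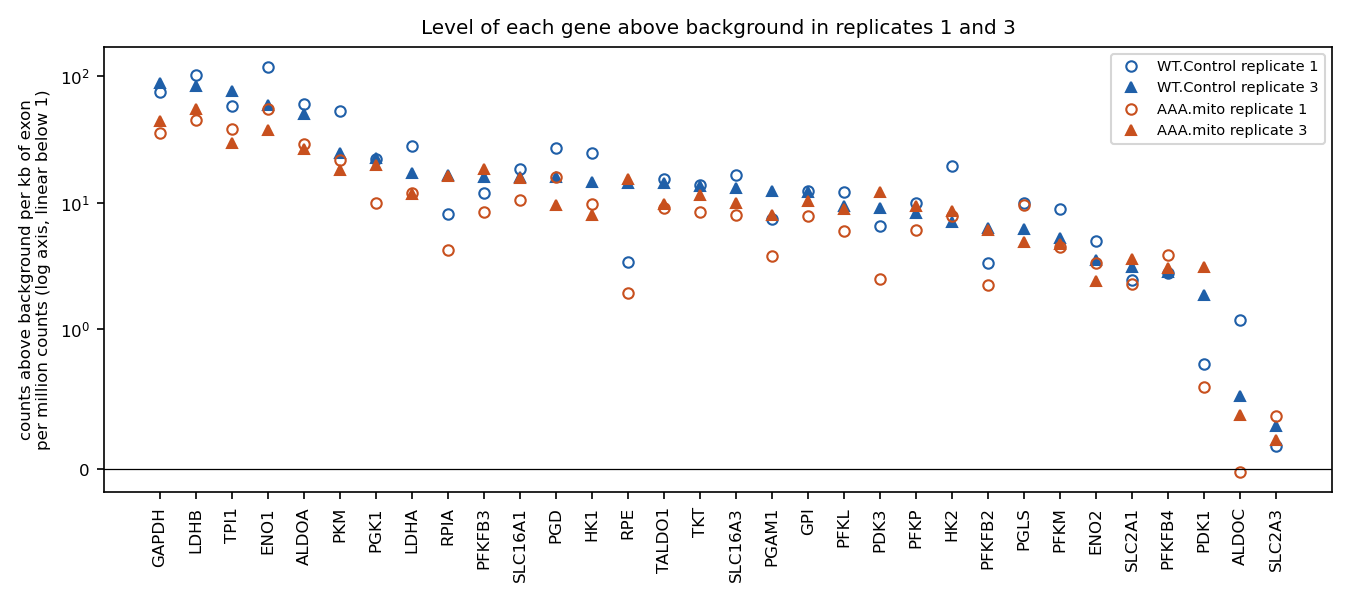
CPM above background per kb of exon (log axis, linear below 1) in replicates 1 (open) and 3 (filled) of control (blue) and mutant (orange), with genes ordered by control replicate 3. GAPDH, LDHB, TPI1, ENO1 and ALDOA lie highest in each of the 4 libraries, and SLC2A3, ALDOC and PDK1 lowest in control replicate 3.

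Several members have near-identical copies elsewhere in the genome, which bears on what their counts can hold. Of the 50-base words in protein-coding transcripts of PGAM1, 43.1% also occurred in transcripts of genes at other positions, the highest share among the 32. The share was 23.8% for SLC2A3, 13.6% for TPI1, 11.2% for GAPDH and 10.2% for RPE. A stretch of PGAM1 is shown with the same stretch of PGAM4, a retrocopy on chromosome X within the span of PGK1, and of AC012085.1, a processed pseudogene on chromosome 12. It covers bases 559 to 648 of the coding sequence in GENCODE release 29, the window of its length with the most differences, and capitals mark bases that differ from PGAM1 or, in PGAM1, from either copy.
PGAM1: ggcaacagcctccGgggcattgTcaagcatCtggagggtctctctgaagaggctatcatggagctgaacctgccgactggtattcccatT
PGAM4: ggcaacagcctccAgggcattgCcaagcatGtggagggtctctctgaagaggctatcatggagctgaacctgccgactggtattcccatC
AC012085.1: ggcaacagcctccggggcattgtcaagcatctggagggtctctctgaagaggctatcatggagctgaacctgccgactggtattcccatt
Over all 765 coding bases, PGAM4 differed from PGAM1 at 13 and AC012085.1 at 1. PGAM1 had 305, 50 and 1977 counts in the control and 86, 7 and 1519 counts in the mutant, as above, while AC012085.1 had between 0 and 6 counts in a library and PGAM4 between 1 and 19. The sources used here do not say how reads matching several places were counted, so the level of PGAM1 is uncertain.

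The 65 annotated GAPDH pseudogenes together had 274, 391 and 785 counts in the control and 215, 96 and 1116 counts in the mutant. In replicate 3 this equalled 4.76% of the GAPDH count in the control and 11.6% in the mutant. The summed copies lay at 1.37, 1.20 and 4.97 times background in control replicates 1, 2 and 3. In the mutant they lay at 1.54, 1.05 and 6.46 times. Whether these counts include reads of GAPDH was not tested. SLC2A3 pseudogenes held more counts than SLC2A3 itself in control replicate 3, 1072 against 157, but fewer in control replicate 2, 52 against 85, and in mutant replicate 2, 19 against 21. In control replicate 3, 991 of the pseudogene counts were assigned to SLC2A3P1, which lies within the gene PANK3.

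Some members overlap other IDs that had similar counts. LDHB had 15675 counts in control replicate 3 and the overlapping ID AC010197.2 had 15776. ALDOA had 12191 and the overlapping ID AC093512.2 had 13026. Whether the same reads stand under both IDs was not tested. GAPDH overlaps the antisense ID AC006064.4, which had 6055 counts there, and SLC16A3 overlaps CSNK1D on the other strand, which had 9894. Nothing in the sources used here states whether counting used strand, so reads of such partners cannot be told apart.

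A wider list of 73 other genes of glucose metabolism was followed in the same fit with pairs. Of 69 tested genes, 1 was called lower and 0 higher, where 1.40% of all tested genes were called lower and 0.00599% higher. The fit without pairs called 0 of the 69. Their median with pairs was −0.19. The next smallest p-values belonged to PCK2, the mitochondrial enzyme that makes phosphoenolpyruvate (−0.77 ± 0.25, adjusted p = 0.139), PDHB, a subunit of pyruvate dehydrogenase (−0.76 ± 0.25, adjusted p = 0.143), and ENO3, the muscle enolase (−0.79 ± 0.26, adjusted p = 0.146). Of 12 paralogues with tissue-restricted expression, 8 stayed below 6 times background in every library. FBP2, a muscle bisphosphatase, ranged from 0.876 to 1.33 times. The other 4 were ENO3, PGAM2, GAPDHS and SLC2A4, which reached 181, 102, 57.7 and 11.7 times. ENO3, PGAM2 and GAPDHS overlap the well counted genes PFN1, DBNL and TMEM147-AS1, and the share of their counts that comes from these was not tested.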

How the data were processed

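RNA recovered with an anti-myc antibody was sequenced in 6 libraries. The deposited table holds raw counts per Ensembl gene, whole numbers that the authors did not normalize, and its 6 value columns match the sample titles. STAR 2.7.6a, FastQC and featureCounts are named, per the submitters' processing notes; the genome build, annotation, strand, overlap and multiple-mapping settings do not appear in the sources used here. Symbols came from a table of gene IDs and from GENCODE release 29 (GRCh38), which also gave positions, spans, exon lengths and sequences; coordinates are those of that reference. Of 60671 IDs, 60647 had a symbol and 58453 were in GENCODE 29.

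The test was that of edgeR 4.0.16 in R 4.3.3 (filterByExpr, TMM, quasi-likelihood F test, Benjamini-Hochberg adjustment over all 33375 tested genes, threshold 0.05), without a replicate block and, as the alternative for shared replicate numbers, with one. The pairing rests on the correlations across genes between the deviations of same-numbered libraries from their group means (0.41, 0.76 and 0.90 for numbers 1, 2 and 3), as no label ties a number to a day or batch. Between libraries of different numbers they ran from −0.81 to 0.27, the highest being control replicate 2 with mutant replicate 1. The part of background level in these correlations was not tested. The standard error is the size of the log2 fold change divided by the square root of F. A pair difference is the log2 CPM (prior count 1) of a mutant library less that of its same-numbered control. DESeq2 1.42.0, other scaling factors, no filter and leaving out libraries or pairs were alternatives. The edgeR step was tested on simulated counts. All 32 genes are named; from the wider list, called genes or those of smallest p were to be named, and 1 gene that the rule selects is left without values here. The members and lists were chosen with earlier results of these data known. Protein identity between paralogues was not computed, as no protein table was used here.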

Additional observations from a re-analysis of the deposited data

How the results depend on the processing

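The count of called members was 0 in both directions under each of the 15 alternatives run. The count over all tested genes was 0 without the replicate block and, with it, 467 lower and 2 higher; with the block and RLE factors it was 573 and 3, 35 and 2 without pair 1, 243 and 16 without pair 2, 0 and 0 without pair 3, and with factors taken from genes far above background 8 lower and 0 higher. The replicate block changed no call among the members. The member median was −0.56 without the block and ranged from −1.04 (without WT.Control replicate 2) to −0.0568 (without WT.Control replicate 3) with 1 library left out, with −0.99 without AAA.mito replicate 3 and −0.10 without AAA.mito replicate 2. Without WT.Control replicate 3, and likewise without AAA.mito replicate 2, 18 of 32 members were negative, against 30 with all libraries. With the block and scaling from genes far above background it was −0.00606; relative to the median of all tested genes it was −0.39, against −0.40 with TMM factors.

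No member passed the test in either fit, so a change of sign is a change of an uncalled value, and its cause was not tested. Against the fit without the block, the sign turned with that scaling for SLC2A1 0.28, SLC2A3 0.31, PFKFB2 0.20, PFKFB3 0.40, PGK1 0.0351, ENO2 0.21, SLC16A1 0.0649, PDK3 0.0941, PGLS 0.30, RPIA 0.36, RPE 0.0372, TKT 0.0215 and TALDO1 0.15. It turned with the block for PDK1 −0.13, with the block and RLE factors for PDK1 −0.0881, without pair 1 for PFKFB3 0.12, PFKFB4 −0.0598, PDK1 −0.14 and RPIA 0.0207, without pair 2 for SLC2A1 0.10 and SLC2A3 0.0303, without pair 3 for SLC2A3 0.0579 and PDK1 −0.55 and with no filter for PFKFB3 0.0759, RPIA 0.00606 and RPE 0.033. Leaving out 1 library turned the sign at least in 1 case for these members, whose values ranged as follows: SLC2A1 −0.45 to 0.31, SLC2A3 −0.37 to 0.24, HK2 −1.01 to 0.000901, GPI −1.25 to 0.12, PFKL −1.30 to 0.0632, PFKP −0.85 to 0.25, PFKFB2 −0.99 to 0.60, PFKFB3 −0.70 to 0.59, PFKFB4 −0.12 to 0.36, PGAM1 −2.01 to 0.30, SLC16A1 −1.06 to 0.13, PDK1 −0.89 to 0.82, PDK3 −0.98 to 0.34, PGLS −0.80 to 0.21, RPIA −0.44 to 0.45, RPE −2.07 to 1.47, TKT −1.29 to 0.18. In the replicate 2 libraries, 23 members of the control and 20 of the mutant lay below 2 times background, which limits what pair 2 can show.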

Other observations

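The ratio of replicate 3 to replicate 1 in times above background differed between members, in a similar order in both groups. It had a median of 4.11 in the control and 8.01 in the mutant over 32 genes, and the log2 ratios of the groups correlated across genes (Pearson's r = 0.73, Spearman's rho = 0.72, n = 32 genes of the same 4 libraries). RPE had the largest ratio, 17.0 times in the control and 36.0 times in the mutant, with PGAM1, PFKFB2 and PDK1 next in the control (8.19, 8.05 and 7.17 times). HK2 (1.81), ALDOC (2.05) and PKM (2.41) had the smallest ratios in the control. In the mutant they stood at 6.78, 8.91 and 6.46 times, and SLC2A3 (2.14), PGLS (3.80) and PGD (4.40) had the smallest ratios. The ratio was not computed for other genes.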
